A study of Drosophila melanogaster with 2 samples.

Results

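Of 3953 thresholded chromatin immunoprecipitation with sequencing (ChIP-seq) peaks of the l(3)neo38 protein, 207 had their summit at the start of a long non-coding RNA (lncRNA) or antisense RNA (asRNA) gene and away from every protein-coding start. The summit is the highest point of a peak as the authors gave it. A summit was a member when it lay within 1000 bp of a transcript start of a gene of biotype ncRNA named as lncRNA or asRNA, and more than 1000 bp from every transcript start of a protein-coding gene. Members made up 5.24% of the peaks (exact 95% interval 4.56 to 5.98%), and the rule used positions only, not signal. They served 174 genes, of which 170 were named lncRNA and 4 asRNA.

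The gene l(3)neo38 encodes a zinc finger protein, and the flies were a transgenic line that stably expressed it with green fluorescent protein (GFP) joined to its C-terminus. Whole embryos of 0 to 24 h, male and female pooled, gave 2 biological replicates, which form 1 group. Chromatin sheared to 200 to 800 bp by sonication was precipitated with an antibody to GFP, so every signal is that of the tagged protein averaged over all embryonic cell types and ages. Untagged embryos, other stages and other factors were not analysed here, so no condition is compared.

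Long non-coding RNA genes are transcribed and often spliced like coding genes but yield transcripts without a long open reading frame. In flies they include regulators of dosage compensation, heat shock responses and Hox gene expression, and some are primary transcripts from which microRNAs are cut. Antisense RNA genes are transcribed from the strand opposite to another gene and overlap it. A ChIP-seq summit near such a start shows where the protein was recovered on chromatin and says nothing of whether the RNA was made.

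The 101 bases centred on 6 member summits are printed here, because they show the range of sequence behind the values that follow: the strongest member (CR45640), a strong member with a C-rich repeat (CR43801), a member with both motifs searched (CR44904), a member with a long GA run (CR45915), and the members at 2 microRNA host genes (CR45911 and iab8). Sequences are 5′ to 3′ on the plus strand of the release 6 genome (dm6), from RefSeq. Capitals mark matches on either strand to CCCACCCC or to GAGAG, the pentamer that the GAGA factor is known to bind.
lncRNA:CR45640 at chr3R:16208402-16208502: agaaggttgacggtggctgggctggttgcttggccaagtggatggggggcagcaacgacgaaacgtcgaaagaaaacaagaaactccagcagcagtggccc
lncRNA:CR43801 at chr2L:6075536-6075636: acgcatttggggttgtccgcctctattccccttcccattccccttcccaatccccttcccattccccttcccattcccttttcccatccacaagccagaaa
lncRNA:CR44904 at chr2L:18796054-18796154: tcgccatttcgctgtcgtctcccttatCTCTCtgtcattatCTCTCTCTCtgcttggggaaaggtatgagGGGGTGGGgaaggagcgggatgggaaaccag
lncRNA:CR45915 at chr3R:6810771-6810871: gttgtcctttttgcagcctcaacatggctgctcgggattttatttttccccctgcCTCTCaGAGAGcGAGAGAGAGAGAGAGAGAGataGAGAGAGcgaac
lncRNA:CR45911 at chr3R:15420662-15420762: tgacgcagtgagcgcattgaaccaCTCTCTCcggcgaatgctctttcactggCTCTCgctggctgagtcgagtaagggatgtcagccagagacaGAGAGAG
lncRNA:iab8 at chr3R:16899850-16899950: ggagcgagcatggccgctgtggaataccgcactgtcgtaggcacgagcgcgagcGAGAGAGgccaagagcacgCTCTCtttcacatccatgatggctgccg

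Neither motif was in the windows of CR45640 or CR43801, while the CR43801 window carried a repeated C-rich unit. The CR45915 window held GAGAG in overlapping copies over much of its second part, and those of CR45911 and iab8 held it on both strands. A match is a description of letters and not of a binding site.

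Among all 207 members, 60 held GAGAG within 50 bp of the summit, or 29.0% (22.9 to 35.7%), where 27.1% of all thresholded peaks did. In flanking windows of the same length, centred 350 bp to either side of the members' summits, 54 of 414 held it, or 13.0%. CCCACCCC, which was chosen on these data, was in 15 members, or 7.25% (4.11 to 11.7%), beside 6.37% of all peaks and 1 of the 414 flanking windows. The shares of both motifs were thus higher at the summit than beside it, and their shares in members lay within counting error of the shares in all peaks. GAGAG too was searched with earlier results of these data known, so the contrast of summit and flank is no independent support for either motif. Only 4 members held both, and 136 held neither.

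CAGGTAG, the heptamer bound by the early activator Zelda, was in 3 members, or 1.45% (0.300 to 4.18%), and in 1 of the 414 flanking windows. That interval covers the 0.557% of all peaks that held it. The repeat CACACACA was in 15 members, or 7.25%, beside 7.34% of all peaks and 3.62% of the members' flanking windows. Each of the 4 motifs was searched on both strands, and a match to CCCACCCC can share letters with one to CACACACA. The median signal was 247.2 in members with GAGAG, 203.8 in those with CCCACCCC and 201.7 in those with neither. Guanine and cytosine made up a median 50.5% of the members' windows and 41.1% of their flanks, and 162 of the 207 members (78.3%) were richer at the summit than beside it. That share was 67.5% for summits at coding starts and 81.3% for summits away from both kinds of start.

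Members were denser on the genome than summits elsewhere. The positions that could hold a member added up to 3.296 Mb, or 2.46% of the 6 chromosome arms, and carried 62.8 summits per Mb (95% Poisson interval 54.5 to 72.0). Positions within 1000 bp of a coding start carried 57.7 per Mb (54.9 to 60.6), and positions over 1000 bp from both kinds of start carried 21.1 per Mb (20.2 to 22.0). Density at the starts of non-coding genes was therefore near that at coding starts and its interval lay above that of the remaining genome. These differences were not tested, since peaks are not replicates, and all intervals here cover counting error only.

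Density was counted apart for the 2 kinds of name. Near lncRNA starts 201 summits fell in 2.863 Mb, or 70.2 per Mb (60.8 to 80.6), whereas near asRNA starts 6 fell in 0.451 Mb, or 13.3 per Mb (4.88 to 29.0). Of 1518 lncRNA genes with a start over 1000 bp from coding starts, 164 had a member, or 10.8% (9.29 to 12.5%). Of 211 such asRNA genes 2 had one, or 0.948% (0.115 to 3.38%). The asRNA positions lay inside coding genes for 86.7% of their length, against 28.4% of the lncRNA positions. Inside coding genes alone, the density was 70.0 per Mb near lncRNA starts (53.0 to 90.7), 10.2 per Mb near asRNA starts (2.79 to 26.2, from 4 summits) and 20.9 per Mb away from both. Outside coding genes it was 70.3 (59.3 to 82.7), 33.4 (4.04 to 120.5, from 2 summits) and 21.4 per Mb. Near lncRNA starts the density was thus alike inside and outside coding genes, whereas near asRNA starts it rested on few summits, with intervals that covered the density away from both.

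**Figure D1:**
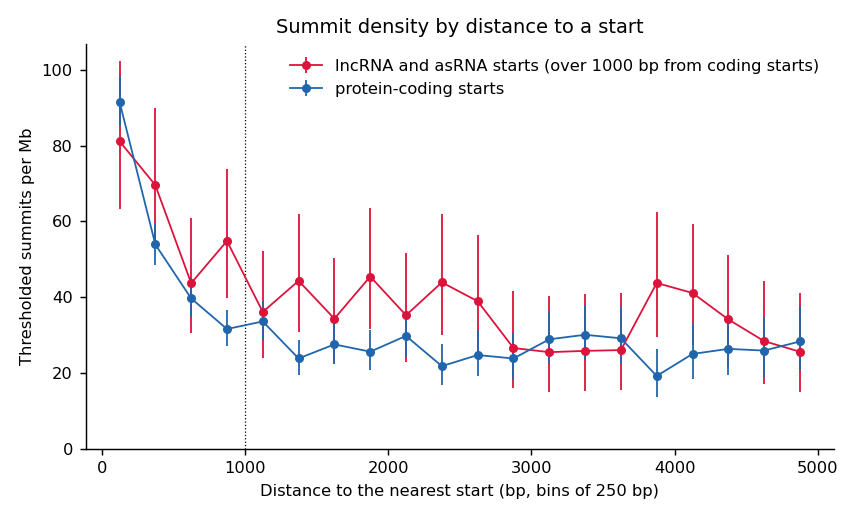
Thresholded summits per Mb (y axis) by distance to the nearest start (x axis, bp, bins of 250 bp), for lncRNA and asRNA starts among positions over 1000 bp from coding starts (red) and for coding starts (blue). Points are counts over the length available, bars are 95% Poisson intervals, and the dotted line is the 1000 bp limit. Density is highest in the bin of 250 bp nearest the start in both series. In bins of 100 bp, not drawn, lncRNA and asRNA starts had 72.1 per Mb at 0 to 100 bp (47.1 to 105.7). The values were 89.4 at 101 to 200 bp (60.7 to 126.9) and 88.7 at 701 to 800 bp (59.0 to 128.2). On either side of the latter, the density was 40.7 at 601 to 700 bp (21.65 to 69.53) and 25.4 at 801 to 900 bp (11.0 to 50.1). Density in these bins did not fall steadily with distance. From 1000 to 2500 bp the red points lie between 34.3 and 45.5 per Mb.

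The members lay at a median of 378 bp from the start (quartiles 187 and 711), with 102 upstream and 105 downstream, an almost even split. Within 100 bp of the start were 26 members, or 12.6% (8.37 to 17.9%), beside 307 of 1564 summits at coding starts, or 19.6% (17.7 to 21.7%). These shares are not scaled to the length available. Of the 3.296 Mb open to the rule, 0.36 Mb lay within 100 bp of a non-coding start. The members within 100 bp had a median signal of 284.7 and those over 500 bp away one of 215.2 (n = 78), with 208.4 in between (n = 103). The medians did not fall steadily with distance, and the strongest member within 100 bp had 848.1, below the 4 strongest members, which lay from 221 to 790 bp away.

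Relative to genes, 99 members lay inside a non-coding gene, 95 of them in an exon, and 71 lay outside every protein-coding, lncRNA and asRNA gene. Inside a protein-coding gene body were 61 members, or 29.5% (23.4 to 36.2%), beside 63.6% of all thresholded peaks. The positions open to the rule were inside coding genes for 36.3% of their length, and the positions away from both kinds of start for 65.4%. Of those 61, 58 were intronic, 2 in a 5′ UTR, 1 in a 3′ UTR and 0 in coding sequence. The nearest coding start was a median of 4410 bp away, and 45 members lay over 10000 bp from any.

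The signal of the members spanned 141.2 to 1670.2 with a median of 216.6 (95% interval from ranks 199.9 to 229.3). This lay between the medians of 224.2 (216.5 to 231.7) at coding starts and 201.5 (196.2 to 205.6) away from both. Among the 100 strongest peaks of the series 9 were members (95% interval of the share 4.20 to 16.4%). Among the 395 strongest 30 were (5.18 to 10.7%). Both intervals cover the 5.24% of all thresholded peaks that were members, so a higher share among strong peaks was not resolved. The signal value is the authors' peak strength, used here only to rank peaks within a list.

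**Figure D2:**
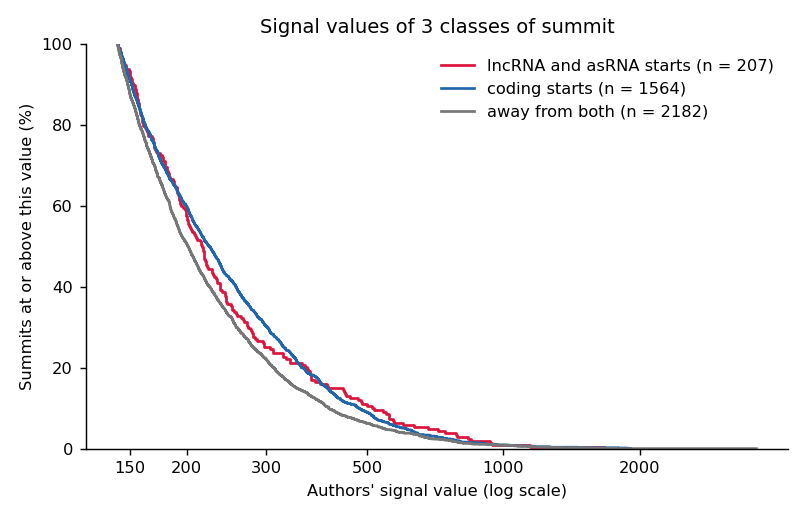
Share of summits (y axis, %) at or above each signal value (x axis, authors' signal, log scale) for the 207 members (red), the 1564 summits at coding starts (blue) and the 2182 away from both (grey). The red curve runs near the blue one, and the grey curve lies below both over most of the range.

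The strongest member was the 8th strongest peak of the series, with a signal of 1670.2 at 3R:16208452. It lay 221 bp upstream of CR45640 and within 1000 bp of CR45637 and CR45639, and was ranked 12 in replicate 1 (signal 914.2) and 3 in replicate 2 (763.4). The next were a neighbouring pair on 2L. CR9162, with its summit 624 bp inside the start, had a signal of 1146.6, rank 36 (615.2) in replicate 1 and rank 17 (544.6) in replicate 2. CR43801, with a summit 790 bp upstream, had 946.7, with ranks 50 (540.8) and 40 (409.9). The nearest coding start was that of Kr-h2 for CR43801, at 3373 bp, and that of Kr-h1, a zinc finger factor of the juvenile hormone response, for CR9162, at 3526 bp.

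CR44366 followed with 933.9, both motifs in its window, and ranks 62 and 35. CR31840 had its summit 10 bp from the start, a signal of 848.1 and ranks 49 and 73. CR45643, upstream of tara, had 837.8 and ranks 76 and 75. CR44184 had a summit 62 bp upstream of its start, 790.2 and ranks 86 and 67. All of these were among the strongest peaks of both replicates, and both CR44184 and CR45292 (635.5, ranks 179 and 147) lie on 2L, at 19019933 and 19012112. CR44619 on X broke the pattern: its signal was 787.6, but it ranked 38 in replicate 1 and 592 in replicate 2.

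The remaining strong members were CR44417 inside an intron of Mapmodulin (745.1, ranks 80 and 137), CR42719 (716.3, ranks 101 and 124) and CR45582 (682.1, ranks 130 and 162). CR44904, 3198 bp from a start of ham, a transcription factor of sensory neuron fate, had 602.0 and ranks 159 and 286. CR45354, whose summit also served CR45355, had 574.5 and ranks 174 and 351. CR45911 closed the 15 strongest with 572.0 and ranks 355 and 109. All 15 were matched in both replicates, 8 held GAGAG, and 1 lay inside a coding gene. Over all thresholded peaks these shares were 61.8%, 27.1% and 63.6%. The 15 were picked by a signal from a list made from both replicates, so the choice itself favoured a match in both.

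Replicates were compared by rank, as their signal scales differ. A member was called matched when each replicate had a summit within 100 bp among as many of its strongest entries as there were thresholded peaks. This held for 134 of the 207, or 64.7% (57.8 to 71.2%), beside 61.8% of all thresholded peaks. A further 34 were matched in replicate 1 only, 31 in replicate 2 only and 8 in neither. Over the full replicate lists 189 were matched in both, with a Spearman correlation of signals across these peaks of 0.608 (0.549 over the 3595 peaks of the whole list matched in this way), a description of peaks that share both libraries.

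**Figure D3:**
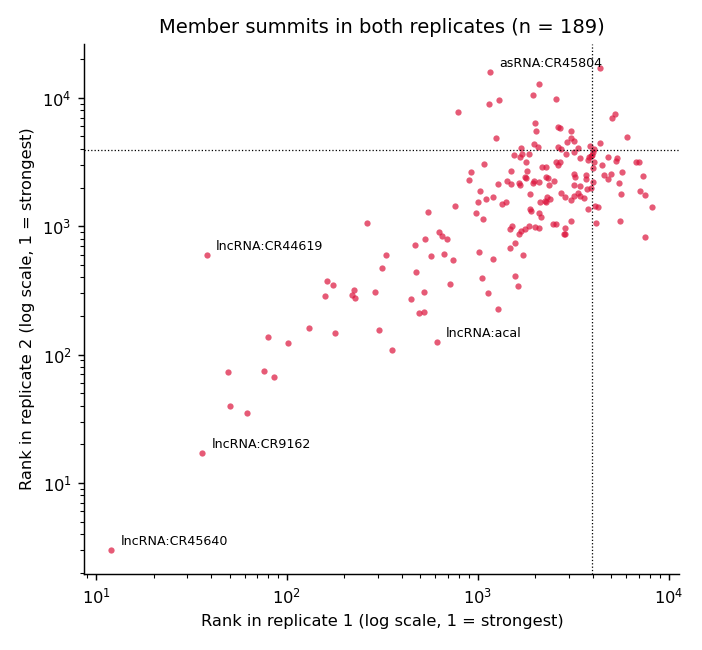
Rank in replicate 1 (x axis) against rank in replicate 2 (y axis), both on log scales with 1 the strongest, for the 189 members matched in both full lists. Dotted lines mark rank 3953, and CR44619 and CR45804 stand apart with a better rank in replicate 1.

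Ranks differed most at the asRNA CR45804, which ranked 1158 in replicate 1 and 15793 in replicate 2 (signal 191.2). The lncRNA CR44769 (142.4) had ranks 4361 and 17045, and CR46352 (156.8) had 2105 and 12920, so all of these were the weaker in replicate 2. The strongest members without any match in one replicate were a second CR44366 summit (460.0, rank 686 in replicate 1, none in replicate 2), a CR45643 summit (370.4, rank 527 in replicate 2) and a CR45642 summit (310.7, rank 454 in replicate 2), the last 2 with none in replicate 1. These last 3 each lay at a gene with at least 1 other member.

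Several of the genes with members hold a microRNA gene in the annotation and are called hosts here. Whether the microRNAs are cut from these transcripts was not tested. Of 37 lncRNA and asRNA genes that hold a microRNA gene on the same strand, 16 had a member, or 43.2% (27.1 to 60.5%), beside 158 of 2410 other non-coding genes, or 6.56% (5.60 to 7.62%), and 7.11% of all 2447. By the strongest entries of replicate 1 alone 16 of the 37 met the same rule, and by those of replicate 2 alone 17 did, and each included the 16. This class was singled out after its values were seen, and the difference was not tested.

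The host genes were longer, with a median of 6436 bp against 711.5 bp, and had more annotated starts, 1.649 against 1.057 on average. Among genes with 1 start, 7 of 23 hosts had a member (30.4%, 13.2 to 52.9%), beside 146 of 2296 others (6.36%, 5.39 to 7.44%). Among genes at least as long as the median host, 11 of 19 hosts and 9 of 73 others had one, or 57.9% (33.5 to 79.8%) and 12.3% (5.79 to 22.1%). The part of length and start number in the difference was not tested.

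**Figure D4:**
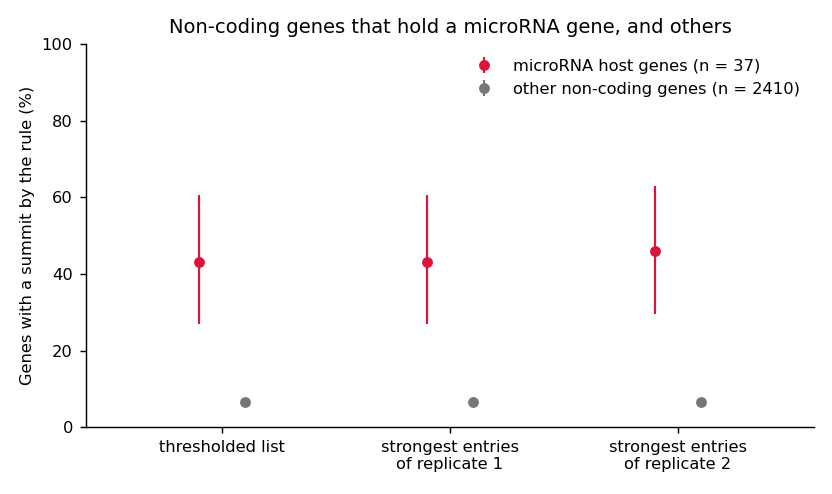
Share of genes (y axis, %) with a summit that meets the rule, for 37 non-coding genes that hold a microRNA gene (red) and 2410 others (grey), in the thresholded list and in the strongest entries of each replicate (x axis). Bars are exact 95% intervals, and they do not overlap in any of the 3 lists, which share the same libraries.

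The strongest member at a host gene lay 2 bp from the start of CR45911, which holds mir-13a, mir-13b-1 and mir-2c (3R:15420712, signal 572.0). CR31044 holds mir-279 and mir-996 and had a summit 101 bp upstream of its start, with a signal of 445.3 and ranks 264 and 1051. CR42651, host of mir-10 in the Antennapedia complex of Hox genes, had 2 summits inside the gene with 410.3 (ranks 1274 and 228) and 244.3 (2359 and 2099). Both of those lay 23688 and 23891 bp from the nearest coding start, that of Dfd, a Hox gene of the head.

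CR43334, the host of bantam, a microRNA that promotes growth and restrains cell death, had more members than any other non-coding gene: 5 in 3 clusters. Their signals were 377.3, 251.9, 176.3, 159.8 and 143.1, at offsets of −225, 5, 953, −288 and −89 bp from its annotated starts. Their ranks in replicate 1 were 1134, 1963, 2714, 3044 and 7016. In replicate 2 they were 304, 4399, 3162, none and 3139. The 2 summits at the upstream start were thus the strongest, and 2 of the 5 were matched in both replicates. One more summit, with 244.3, lay 1014 bp from a CR43334 start, just outside the limit.

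CR44206, the host of mir-184, had a summit 31 bp from an internal start with 374.4 and ranks 468 and 718. CR43836 (mir-31b) on X had 305.2 and ranks 1716 and 597. CR42721, the host of mir-993, had 237.3, CR45388 (mir-315) 233.0, and CR45919, the host of mir-124, a microRNA of neurons, 220.8 at 239 bp upstream. The weakest hosts were CR45910 (mir-1000) with 214.2 and 151.4, CR46006 (mir-276a) with 193.0, CR46004 (mir-276b) with 187.3, and CR43651 (mir-14, a suppressor of cell death) with 183.1 at 44 bp inside the start. The 24 members at host genes had a median signal of 226.9, and 18 of them were matched in both replicates, so they were of ordinary strength for members. Among hosts without a member were let7C, CR43650 (mir-8), CR45361 (mir-1) and CR45916 (mir-9a).

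The hosts iab8 and iab4 belong to the bithorax complex, the cluster of posterior Hox genes, and Hsromega, which holds mir-4951, is described with the studied RNAs. The iab8 transcript, which holds mir-iab-8, had a summit 68 bp upstream of an annotated start, with 296.0 and ranks 1068 and 1142. The iab4 transcript, which holds mir-iab-4 on the opposite strand, had a summit 589 bp inside a start with 217.7 and ranks 1962 and 2234. The bxd transcript of the same complex had none within 1000 bp.

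Of a list of studied non-coding RNAs, 13 were in the annotation and 4 had a member. Among all 2447 lncRNA and asRNA genes 174 had a member, or 7.11%. The list was drawn up with earlier results of these data known, and the difference was not tested. Hsromega, the heat shock RNA that organises nuclear omega speckles, had 3. Their signals were 375.4 (901 bp inside a start, ranks 652 and 843), 201.2 (224 bp upstream of the same start, 1680 and 4053) and 190.4 (989 bp upstream of the first start, 3784 and 1371). The acal RNA, which acts in dorsal closure of the embryo, had a member of 518.0 at 141 bp inside its start, with ranks 613 and 125, and iab8 is described above. Vinr, an RNA known from viral infection, had a member of 237.1 at 756 bp upstream of its start on X. This summit lay in the 3′ UTR of CG4004, with ranks 1246 and 4882. The CR44619 summits of 787.6 and 325.8 lay inside the Vinr gene, but more than 1000 bp from its start. No thresholded summit lay within 1000 bp of roX1 or roX2, the RNAs of X chromosome dosage compensation, of flam, the source of piRNAs against transposons, or of bxd, yar, CRG, noe, sphinx and let7C. Of 8 snoRNA host names on a second list, 7 were annotated without lncRNA in their name, which puts them outside the rule, and 0 of these had a summit at its distances.

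Upstream of tara, a trithorax group gene with roles in the cell cycle, 8 members lay between positions −17199 and −1128 bp relative to the start of the gene on 3R. From the far side, their signals were 1670.2, 207.5, 152.6, 310.7, 192.7, 837.8, 273.5 and 370.4. The first is the strongest member, at CR45640, and the last 3 belong to CR45643. Within the same stretch lie the lncRNA genes CR45637, CR45638, CR45639, CR45641 and CR45642. The nearest coding start was that of tara for the CR45643 summits alone, and that of mtSSB, which encodes the mitochondrial single-stranded DNA binding protein, for the other 5, with the strongest 3202 bp from it. Among summits that are no members, one of 631.6 lay at −4146 bp, and those within 1000 bp of the first start of tara had 404.7 and 186.0. Others upstream had 220.3, 157.5 and 178.7. Summits that are no members also ran on through the tara gene, among them 727.7 at 10016 bp, 695.2 at 11344 bp and 648.6 at 29583 bp. The run of summits was thus not limited to the lncRNA starts.

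**Figure D5:**
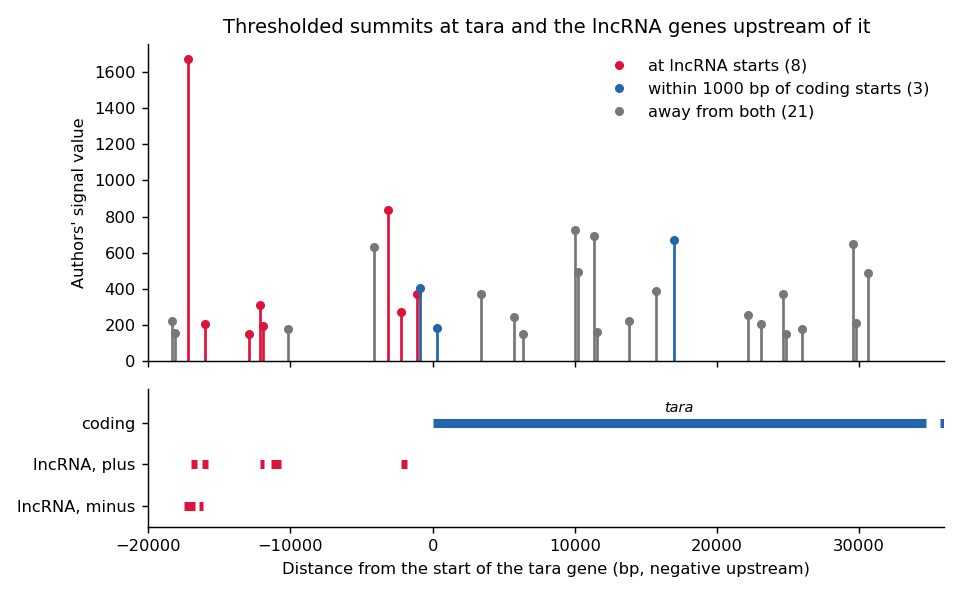
Authors' signal value (y axis) of each thresholded summit by its distance from the start of tara (x axis, bp, negative upstream), with gene bodies below by kind and strand. Red summits are the 8 members, and the tallest, at −17199 bp, has its nearest coding start at mtSSB, left of the range drawn.

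Some members had a gene from a list of patterning regulators as their nearest coding gene, at distances from 1003 bp (lola) to 40308 bp (mirr). Its 108 annotated genes did not include salm or ptc, which were nearest to 1 member each. For 22 members, or 10.6% (6.78 to 15.7%), the nearest coding start belonged to a listed gene. The share was 9.31% of all thresholded peaks and 11.0% of those away from both kinds of start. The members' share was therefore near the background. Dfd and tara were nearest to 3 members each, and lola, pnt and pros to 2 each. Antp, GATAe, H15, abd-A, caup, ftz, jing, mirr, run and tup were nearest to 1 each.

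In the Hox clusters, CR45915 had 558.9 with ranks 303 and 156, at 18985 bp from Dfd. CR45899 had 394.4 with ranks 669 and 605, at 1661 bp from Antp, the Hox gene of the thorax. CR45559 had 384.1 with ranks 532 and 801, at 29004 bp from ftz, a pair-rule gene. On X, CR43862 had 408.7 with ranks 713 and 355, at 3246 bp from run, another pair-rule gene. These were matched in both replicates, unlike the weakest of the 22, a CR46090 summit inside pnt (153.7, ranks 5652 and 1796).

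Of the 174 genes, 134 had 1 member, 34 had 2 and 6 had 3 or more, and the 207 summits formed 191 clusters of summits within 250 bp of each other. Another thresholded summit lay within that distance for 17.4% of members (12.5 to 23.2%), beside 15.7% of all thresholded peaks. Besides CR43334, CR45643, CR45642 and Hsromega, the genes with 3 were CR44732 (272.2, 199.8 and 150.3) and CR45355 (574.5, 376.7 and 187.5). Those with 2 separate clusters included CR44331, inside puc, the phosphatase that limits JNK signalling, with 558.2 (ranks 220 and 293) and 258.8 (900 and 2272). CR43287, inside CHES-1-like on X, had 446.9 (332 and 599) and 143.4 (3542 in replicate 1, none in replicate 2). For both genes the weaker summit ranked lower in replicate 2 than in replicate 1 or had no match there.

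The other lncRNA genes with 2 clusters had their strongest member at 1670.2 (shared by CR45637, CR45639 and CR45640), 946.7 (CR43801), 933.9 (CR44366), 787.6 (CR44619), 441.9 (shared by CR44867 and CR44868), 339.0 (CR46036), 280.7 (CR44677), 268.1 (CR45541), 264.1 (CR45251), 250.1 (CR45595), 227.9 (CR43700), 218.1 (CR46090), 215.2 (CR44339), 202.1 (CR44204) and 199.6 (CR44565). Among asRNA genes, CR45281 had 485.2 and 144.2, and CR46471, inside sli, which encodes the axon guidance ligand Slit, had 294.7 and 142.3. CR45135, inside lola, a regulator of axon growth, had 332.2, and CR45804, inside Prps, had 191.2. These were all 6 members nearest to an asRNA start.

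By arm, members numbered 48 on 2L, 40 on 2R, 49 on 3L, 50 on 3R, 20 on X and 0 of 11 peaks on 4. The X held the smallest share among the large arms, 2.86% of its peaks (1.75 to 4.38%). Scaled to the positions open to the rule, however, X carried 52.1 members per Mb, close to the 56.5 of 2L, while 2R carried 82.6, 3L 62.4 and 3R 65.3. On each of these 5 arms this was above the density away from both kinds of start, which ran from 19.8 to 22.3 per Mb.

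At the edges of the rule, members just inside the 1000 bp limit to a non-coding start were at CR44828 (999 bp, 154.4) and Hsromega (989 bp, 190.4), and summits just outside it were at CR45097 (1012 bp, 150.9) and CR43334 (1014 bp, 244.3). Just inside the limit to a coding start were CR44733 (1001 bp from elB, 310.9) and CR45135 (1003 bp from lola, 332.2). Just outside it were CR44873 (1000 bp from Ndf, 214.2) and marge (994 bp from CG3349, 592.6). Of all 324 summits near a non-coding start, 117 were left out because a coding start was also near. No read counts were in the lists, so the depth behind each signal is unknown.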

How the data were processed

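Per the descriptions deposited by the authors, entries were called against a control in each replicate and in both pooled, and the thresholded list came from these lists by the irreproducible discovery rate procedure. The caller and the cut-off applied were not given in the sources used here. Deposited signal values rank entries within a list, and their normalization is not given. The other deposited value used was the summit offset within each interval. Each replicate and pooled list held 30000 entries. Lists on dm3 were not used.

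Summits on dm6 were set against transcript starts of the Ensembl release 115 annotation on 6 arms. Genes of biotype ncRNA named lncRNA or asRNA were taken as non-coding genes. Python 3.11.15, pandas 2.3.3, NumPy 2.4.6 and SciPy 1.17.1 were used, and figures were drawn with matplotlib 3.10.9. The rule and the matching were tested on simulated data. Shares have exact Clopper-Pearson and densities exact Poisson 95% intervals. Peaks are not independent replicates, so no p was computed.

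Named genes were those of the 15 strongest members, those with 2 or more clusters or 3 or more members, studied non-coding RNAs with a member, members at the limits, and members whose replicate ranks differed most or that had no match. Genes that hold microRNAs, further genes with a patterning regulator as nearest coding gene, and the lncRNA genes upstream of tara were named after their values were seen. Members, lists and motifs were chosen with earlier results of these data known. Alternatives were other distances, gene 5′ ends only, the stronger peaks, each replicate alone, other match distances, wider windows and one summit per cluster.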

Additional observations from a re-analysis of the deposited data

How the results depend on the processing

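The count of members followed the distance chosen, as the rule fixes: 129 summits at 112 genes with a non-coding start within 500 bp, and 329 at 271 genes within 2000 bp. Keeping only the 1976 strongest peaks left 109 members at 102 genes, with a median signal of 294.7. The share matched in both replicates was 52.17% at a match distance of 50 bp, and 91.30% over all entries of each replicate list. GAGAG was in 44.44% of members in windows that reached 100 bp to either side, beside 44.70% of all thresholded peaks. Leaving out 1 replicate gave 192 members at 173 genes from replicate 1 and 208 at 176 from replicate 2. Other limits to coding starts, gene 5′ ends only, a match distance of 200 bp, wider windows for CCCACCCC and one summit per cluster kept counts within 1.5 times, or shares and medians within the counting interval. Taking all genes of biotype ncRNA, chosen after seeing the data, gave 221 summits at 216 genes with a median signal of 217.7. The unknown read depth limits how weak a summit can be and still be listed. No paired analysis was possible because the 2 replicates form 1 group.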

Other observations

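In the pooled list, 26047 weaker entries lay outside the thresholded list, and they were also denser by the same rule: 293.7 per Mb at lncRNA and asRNA starts away from coding starts (275.5 to 312.8), beside 189.8 per Mb away from both. Of weaker entries over 1000 bp from coding starts 4.70% met the rule, and of thresholded summits 8.67% did, where 3.09% of such positions were open to it.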
